A study of Homo sapiens with 36 samples.

Results

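The genes examined are 9 listed members of the S100 family: S100A8, S100A9, S100A12, S100A4, S100A6, S100A10, S100A11, S100A13 and S100P. They are among the 27269 genes above 0 in any library, and 12 further S100 family genes were not listed. The 9 genes were selected on the deposited values themselves, because S100A8 and S100A9 were higher with the compound A9 than with the vehicle DMSO in both cell lines studied. Their A9 against DMSO values are therefore given as a description, with no test.

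The libraries were made from poly(A) RNA of MOLM-13 and MONO-MAC-6, both established human acute myeloid leukaemia lines of monocytic character, labelled as wild type. Each line received DMSO or A9 for 72 h, with A9 at 0.125 µM for the former line and 0.25 µM for the latter. A9 is a PROTAC, a molecule that brings a target protein to a ubiquitin ligase so that the protein is degraded; the series title names the targets IKK1 and NR4A1, whereas its design text names IKK2 and NR4A1. The 36 libraries form 4 groups of 3 samples with 3 libraries each; a sample is here the mean of the 3 libraries that share a first number. Each line is 1 cell line, the doses differ between the lines, and nothing states that samples came from separate cultures, so p-values measure only the spread between these samples. Because a PROTAC acts on protein, transcript levels of its targets do not check the treatment labels.

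S100 proteins are small calcium-binding proteins, each built around a pair of EF-hand motifs, and most work as dimers. S100A8 and S100A9 pair to form calprotectin, a major cytosolic protein of neutrophils and monocytes that is released in inflammation and signals through TLR4 and RAGE. Most of the other members act mainly inside the cell, on annexins, the cytoskeleton and membranes. Most of the family lies in a cluster on the long arm of chromosome 1.

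S100A8, S100A9 and S100A12 are neighbours in that cluster, at chr1:153390032-153391188 on the minus strand, chr1:153357854-153361027 on the plus strand and chr1:153373706-153375649 on the minus strand (GRCh38, GENCODE 29). The 250 bases upstream of each start are shown because these genes were the 3 that differed most with A9 on the log2 scale in each line (RefSeq, GRCh38.p14, read on the strand of the gene, at chr1:153391189-153391438 on the minus strand, chr1:153357604-153357853 on the plus strand and chr1:153375622-153375871 on the minus strand, respectively). Capitals mark matches on either strand to any of 5 motifs chosen after the data had been seen: TTNNGNAA for the C/EBP-like motif, GAGGAA for the core that PU.1 binds, a kappaB-like run of 3 G, any 3 bases, 2 T and 2 C, TATAAA for the canonical core promoter box, and TGANTCA for the motif of AP-1.
S100A8: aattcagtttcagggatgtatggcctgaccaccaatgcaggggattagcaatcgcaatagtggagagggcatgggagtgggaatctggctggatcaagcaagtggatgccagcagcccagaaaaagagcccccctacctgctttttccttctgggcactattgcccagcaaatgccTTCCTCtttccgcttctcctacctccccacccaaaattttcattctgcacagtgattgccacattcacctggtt
S100A9: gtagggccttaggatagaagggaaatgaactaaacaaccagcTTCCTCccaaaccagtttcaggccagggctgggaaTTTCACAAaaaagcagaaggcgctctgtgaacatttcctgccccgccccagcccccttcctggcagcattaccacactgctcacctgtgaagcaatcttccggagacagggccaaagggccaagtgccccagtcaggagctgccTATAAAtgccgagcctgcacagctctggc
S100A12: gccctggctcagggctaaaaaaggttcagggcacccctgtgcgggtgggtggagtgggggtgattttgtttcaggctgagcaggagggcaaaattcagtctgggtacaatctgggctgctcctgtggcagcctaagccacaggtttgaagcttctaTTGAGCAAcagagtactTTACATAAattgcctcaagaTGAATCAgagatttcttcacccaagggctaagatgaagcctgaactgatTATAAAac

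The S100A8 stretch held a PU.1 core at positions -74 to -69, counted back from -1 at the base before the start. The S100A9 stretch held a PU.1 core at -208 to -203, a C/EBP-like match at -173 to -166 and a TATA box at -29 to -24. The S100A12 stretch held C/EBP-like matches at -94 to -87 and -77 to -70, an AP-1 match at -57 to -51 and a TATA box at -8 to -3. Its RefSeq start lies 28 bases downstream of the start of the transcript measured here. The last 28 bases shown, with the TATA box, therefore lie inside that transcript. Of 34943 upstream stretches of 250 bases in the same table, 33.2% held the C/EBP-like letters, 23.6% the PU.1 core, 5.67% the kappaB-like letters, 10.8% the TATA box and 6.59% the AP-1 letters. None of the 3 stretches held the kappaB-like letters. No match shown overlapped another, and matches are descriptions of the letters and not binding sites.

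Values are in TPM (transcript abundance), a level corrected for transcript length that sums to 1000000 over a library, summed over the transcripts of a gene. The files hold no counts, so the depth behind each value is unknown. MONO-MAC-6 DMSO sample 1 stood apart. On the first principal component of MONO-MAC-6, which held 77.6% of the variance over 9289 genes, it lay at 55.3 and the other samples of the line between -18.9 and 0.88. Each MONO-MAC-6 difference of a member is therefore given with and without it. The median log2 difference of all genes tested, A9 minus DMSO, was 0.16 in MONO-MAC-6, 0.03 without that sample and 0.03 after median-ratio scaling, and it was -0.05 in MOLM-13. The MOLM-13 samples were also uneven. Their first principal component held 77.05% of the variance over 8579 genes, and the treatment groups overlapped on it. DMSO samples lay between -25.6 (sample 1) and 11.8, and A9 samples between -11.4 and 32.5 (sample 3).

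In MOLM-13, S100A8 stood at 76.8, 78.8 and 85.0 TPM in the DMSO samples and at 275, 295 and 321 TPM in the A9 samples. S100A9, its calprotectin partner, stood at 70.0, 71.7 and 75.8 TPM with DMSO and at 255, 263 and 298 TPM with A9. The groups did not overlap for either gene, and every A9 sample exceeded 3 times every DMSO sample. The mean of S100A8 was 80.2 ± 4.23 TPM with DMSO and 297 ± 22.9 TPM with A9 (SD, n = 3), a 3.70-fold ratio, and that of S100A9 was 72.5 ± 2.97 and 272 ± 22.8 TPM (SD, n = 3), a 3.75-fold ratio. On the log2(TPM + 1) scale the differences were 1.87 for S100A8 and 1.89 for S100A9.

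In MONO-MAC-6 both genes were already abundant. S100A8 stood at 2633, 1684 and 1741 TPM with DMSO and at 3663, 4114 and 4182 TPM with A9. S100A9 stood at 3817, 2634 and 2503 TPM with DMSO and at 5373, 5907 and 5730 TPM with A9. For both genes DMSO sample 1 was the highest of its group, yet below every A9 sample. The ratio of means was 1.97 for S100A8 and 1.90 for S100A9, with log2 differences of 1.01 and 0.95, or 1.22 and 1.14 without DMSO sample 1. The 3 repeat libraries of a DMSO sample differed little in S100A8, with a coefficient of variation of 0.522% to 0.988%, whereas the 3 DMSO samples varied by 26.4%.

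**Figure D1:**
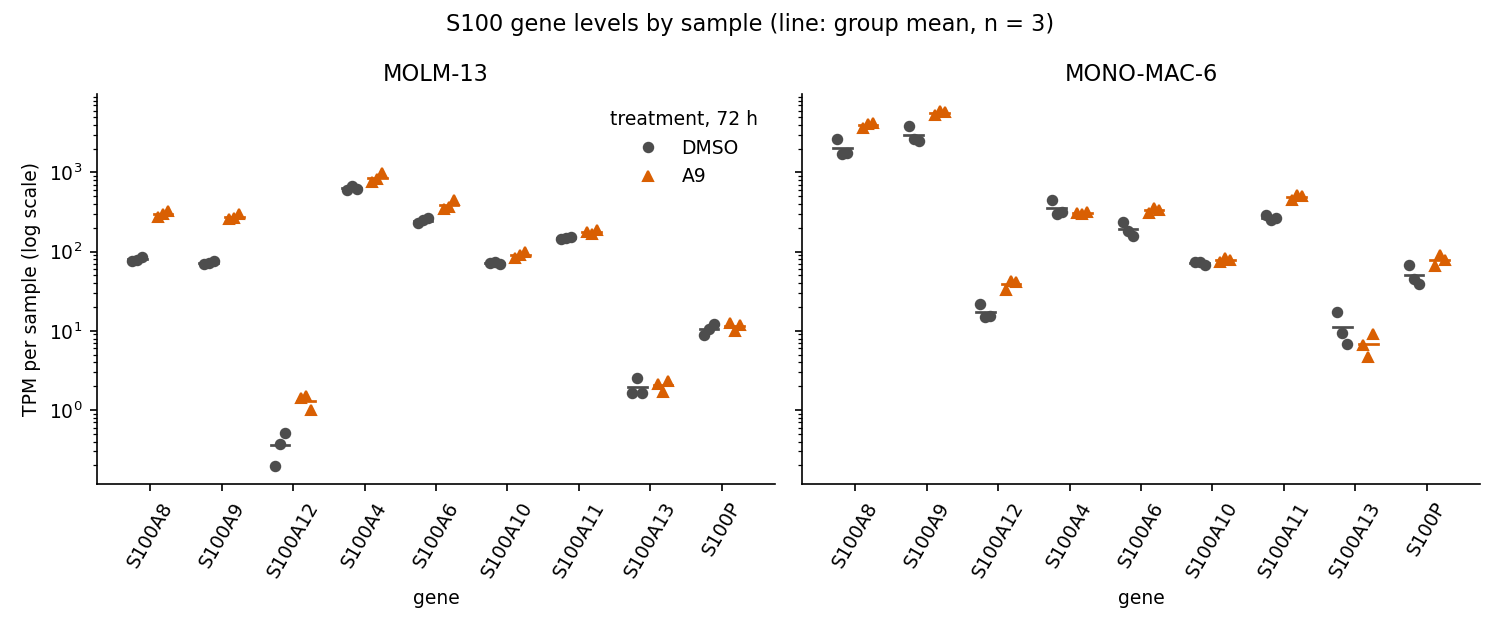
Levels of the 9 S100 genes in TPM (vertical axis, log scale) for each sample of MOLM-13 (left) and MONO-MAC-6 (right); circles are DMSO samples, triangles A9 samples and short lines group means (n = 3). S100A8 lies at 76.8 to 85.0 TPM in the DMSO samples of MOLM-13 and at 1684 to 2633 TPM in those of MONO-MAC-6, and for S100A8 and S100A9 the A9 samples lie above the DMSO samples in both lines.

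The pair moved far up the order of all genes. By group mean, S100A9 went from rank 1599 to rank 400 in MOLM-13 and from rank 47 to rank 14 in MONO-MAC-6. S100A8 went from rank 1427 to 364 and from rank 79 to 24. Together, the 2 transcripts made up 0.0147% to 0.0161% of all TPM in the DMSO samples of MOLM-13 and 0.0530% to 0.0619% in its A9 samples. In MONO-MAC-6 they made up 0.424% to 0.645% with DMSO and 0.904% to 1.002% with A9, so the A9 samples of MOLM-13 remained below every sample of MONO-MAC-6.

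The ratio of S100A9 to S100A8 differed between the lines more than between treatments. It was 0.892 to 0.911 in the DMSO samples and 0.892 to 0.928 in the A9 samples of MOLM-13. In MONO-MAC-6 it was 1.44 to 1.57 with DMSO and 1.37 to 1.47 with A9. The treatment groups overlapped within each line, and the 2 lines did not overlap. A single transcript carried nearly all of each gene: S100A8-202 made up 97.6% of S100A8 with DMSO and 98.0% with A9 in MOLM-13, and S100A9 was measured through S100A9-201 alone.

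S100A12, a myeloid S100 protein that lies between the pair on the chromosome and is known as a ligand of RAGE, was scarce in MOLM-13. It stood at 0.194, 0.374 and 0.515 TPM with DMSO and at 1.41, 1.51 and 1.003 TPM with A9. The groups did not overlap, but single libraries reached 0 and the repeat libraries of a DMSO sample varied by 89.1% to 138%. The log2 difference was 0.76 with a pseudocount of 1 and 1.66 with a pseudocount of 0.1. In MONO-MAC-6, S100A12 stood at 21.7, 14.9 and 15.3 TPM with DMSO and at 33.0, 42.4 and 41.2 TPM with A9, a 2.24-fold ratio of means. Its log2 difference there was 1.13, or 1.299 without DMSO sample 1, above those of S100A8 and S100A9.

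S100A4, which binds non-muscle myosin and is known for its part in cell motility, was the most abundant member in MOLM-13. It stood at 600, 670 and 621 TPM with DMSO and at 766, 813 and 990 TPM with A9, with no overlap and a 1.36-fold ratio of means. In MONO-MAC-6 it stood at 447, 302 and 320 TPM with DMSO and at 311, 302 and 319 TPM with A9. There the groups overlapped, and the log2 difference of -0.17 came to 0.00 without DMSO sample 1, the only sample above 320 TPM.

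S100A6, also called calcyclin, lies near S100A4 in the cluster and is a partner of the protein CACYBP. It stood at 227, 248 and 265 TPM with DMSO and at 340, 360 and 446 TPM with A9 in MOLM-13. In MONO-MAC-6 it stood at 233, 181 and 158 TPM with DMSO and at 306, 355 and 336 TPM with A9. The groups did not overlap in either line, with log2 differences of 0.62 in MOLM-13 against 0.81 in MONO-MAC-6 (0.97 without DMSO sample 1). In MONO-MAC-6 the ratio of S100A4 to S100A6 was 1.67 to 2.02 with DMSO and 0.850 to 1.01 with A9. In MOLM-13 it was 2.34 to 2.70 with DMSO and 2.22 to 2.26 with A9, and the treatment groups were apart in both lines.

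**Figure D2:**
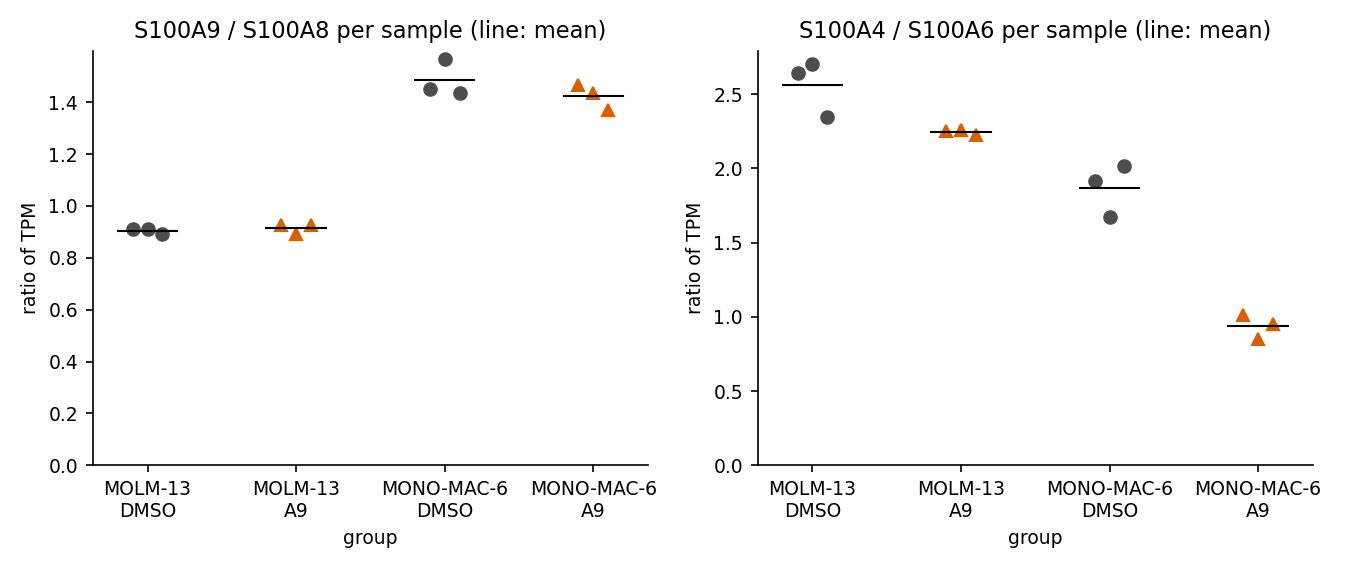
Ratio of TPM per sample (vertical axis, from 0) of S100A9 to S100A8 (left) and of S100A4 to S100A6 (right) in the 4 groups; circles are DMSO samples, triangles A9 samples and lines group means (n = 3). The left ratio separates the lines, at 0.892 to 0.928 in MOLM-13 and 1.37 to 1.57 in MONO-MAC-6, and the right ratio is lowest in MONO-MAC-6 with A9, at 0.850 to 1.01.

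S100A11, which binds annexin A1, was higher with A9 in both lines. In MONO-MAC-6 it stood at 289, 253 and 265 TPM with DMSO and at 449, 512 and 505 TPM with A9, a 1.81-fold ratio of means with no overlap. In MOLM-13 it stood at 145, 150 and 154 TPM with DMSO and at 177, 168 and 188 TPM with A9, a 1.19-fold ratio, again with no overlap. The log2 differences were 0.86 in MONO-MAC-6, or 0.91 without DMSO sample 1, and 0.24 in MOLM-13.

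S100A10, the partner of annexin A2 that does not depend on calcium, had small differences in both lines. In MOLM-13 it stood at 72.3, 74.1 and 68.8 TPM with DMSO and at 82.8, 90.8 and 97.5 TPM with A9, a 1.26-fold ratio with no overlap. In MONO-MAC-6 it stood at 75.0, 73.6 and 68.6 TPM with DMSO and at 74.7, 82.3 and 78.3 TPM with A9, and the groups overlapped. The log2 difference in MONO-MAC-6 was 0.11 or 0.14 without DMSO sample 1, and turned to -0.04 after median-ratio scaling.

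S100P, a secreted member encoded on chromosome 4 outside the cluster, had overlapping groups in both lines. In MOLM-13 it stood at 8.77, 10.7 and 12.3 TPM with DMSO and at 12.5, 9.81 and 11.8 TPM with A9. In MONO-MAC-6 it stood at 68.0, 45.0 and 38.6 TPM with DMSO and at 65.8, 89.3 and 78.9 TPM with A9. There the overlap came from DMSO sample 1 alone, and the log2 difference was 0.65 with it and 0.88 without it.

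S100A13, which takes part in the release of proteins that lack a signal peptide, was the least abundant member in MONO-MAC-6. It stood at 1.66, 2.56 and 1.66 TPM with DMSO and at 2.15, 1.68 and 2.33 TPM with A9 in MOLM-13, and at 17.2, 9.39 and 6.90 TPM with DMSO and 6.58, 4.65 and 9.12 TPM with A9 in MONO-MAC-6. The groups overlapped in both lines, and the log2 difference in MONO-MAC-6 was -0.60, or -0.26 without DMSO sample 1. The value is uncertain, because S100A13 overlaps S100A1 on the opposite strand and whether strand was used in the quantification is not given in the sources used here. In MONO-MAC-6 with DMSO, 61.6% of it lay in S100A13-205, a transcript annotated as non-coding.

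Counted together, the A9 samples lay wholly above the DMSO samples for 7 of the 9 members in MOLM-13, all but S100A13 and S100P, where 8.58% of the 11602 genes tested did so. They lay wholly above for 5 of 9 in MONO-MAC-6, namely S100A8, S100A9, S100A12, S100A6 and S100A11, where 27.2% of 12876 genes did so. No member had its A9 samples wholly below the DMSO samples; over all genes tested the share was 6.42% in MOLM-13 against 10.7% in MONO-MAC-6. The median log2 difference of the 9 members was 0.43 in MOLM-13 against 0.81 in MONO-MAC-6, or 0.91 without DMSO sample 1. Nothing is read from these counts, since the members were selected on this contrast; S100A8 and S100A9 had to be higher. The order of the members also differed between the lines: S100A9 and S100A8 led in MOLM-13, and S100A12 led in MONO-MAC-6, where S100A11 and S100P had larger differences than in MOLM-13. The selection set no fold threshold; the smallest differences among members without overlap were those of S100A11 in MOLM-13 and S100A6 in MONO-MAC-6, and the largest with overlap were those of S100P in both lines.

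**Figure D3:**
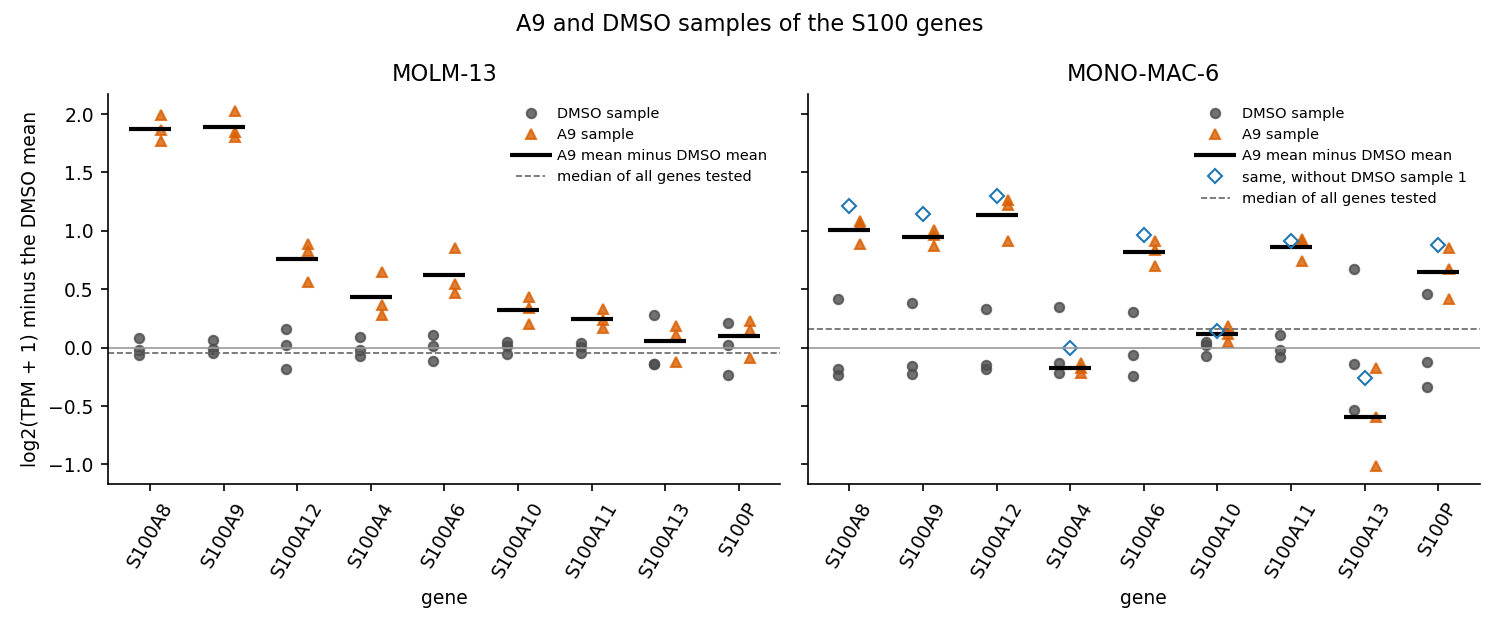
Log2(TPM + 1) of each sample minus the mean of the DMSO samples (vertical axis) for the 9 S100 genes in MOLM-13 (left) and MONO-MAC-6 (right); circles are DMSO samples, triangles A9 samples, bars the A9 mean, open diamonds the A9 mean minus the mean of DMSO samples 2 and 3, and the dashed line the median difference of all genes tested. S100A8 and S100A9 differ by 1.87 and 1.89 in MOLM-13 and by 1.01 and 0.95 in MONO-MAC-6, where leaving out DMSO sample 1 gives 1.22 and 1.14.

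The DMSO groups of the lines gave a comparison that the selection did not use, although the DMSO samples are the same. The values of each line were deposited separately, so line and any separate handling cannot be told apart. The question was how far the family differs between the lines without A9. Of the 8 members that averaged 1 TPM or more in both lines, 5 were higher in MONO-MAC-6 and 1 was lower, by limma with Benjamini-Hochberg adjustment over 12928 genes at an adjusted p under 0.05; over all genes tested, 30.4% were higher and 18.4% lower. S100A12 entered the fit only through MONO-MAC-6, the line where it is high, so it is described and not counted. The largest differences were in the 3 myeloid genes. S100A9 averaged 2985 ± 724 TPM in MONO-MAC-6 and 72.5 ± 2.97 TPM in MOLM-13 (SD, n = 3), a log2 difference of 5.32 (limma 95% interval 4.91 to 5.73, adjusted p = 5.03e-06). S100A8 averaged 2019 ± 532 and 80.2 ± 4.23 TPM (SD, n = 3), a log2 difference of 4.61 (limma 95% interval 4.17 to 5.05, adjusted p = 1.07e-05). S100A12 averaged 17.3 ± 3.83 and 0.361 ± 0.161 TPM (SD, n = 3), a log2 difference of 3.74. Without MONO-MAC-6 DMSO sample 1 the differences were 5.13 for S100A9, 4.40 for S100A8 and 3.57 for S100A12.

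S100P was higher in MONO-MAC-6 by 2.12 (limma adjusted p = 0.000595), S100A13 by 1.97 (0.0033) and S100A11 by 0.84 (0.00027), all on the log2 scale. S100A4 was lower in MONO-MAC-6, at 356 ± 79.1 against 631 ± 35.7 TPM (SD, n = 3), a log2 difference of -0.84 (limma adjusted p = 0.00579). With DMSO sample 1 of MONO-MAC-6 left out the differences were 1.89 for S100P, 1.63 for S100A13, 0.79 for S100A11 and -1.02 for S100A4. S100A6 did not pass, at -0.39 (limma adjusted p = 0.0821), but passed at -0.54 without MONO-MAC-6 DMSO sample 1 (limma adjusted p = 0.00424; 0.00424 to 0.21 over 12 alternatives). For S100A10 the means were 72.4 and 71.8 TPM, and the limma 95% interval of the log2 difference ran from -0.18 to 0.21 (adjusted p = 0.916). Its difference was 0.01, or -0.01 without that sample, and with a length trend removed it was called at -0.23 (limma adjusted p = 0.0345; up to 0.999 over 12 alternatives). All 3 samples of one line lay beyond all 3 of the other for the 6 genes called and S100A12. The share of all genes that did so was not computed, so nothing is read from this. With 3 samples against 3, an exact permutation test of a single gene cannot go below a two-sided p of 0.1.

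**Figure D4:**
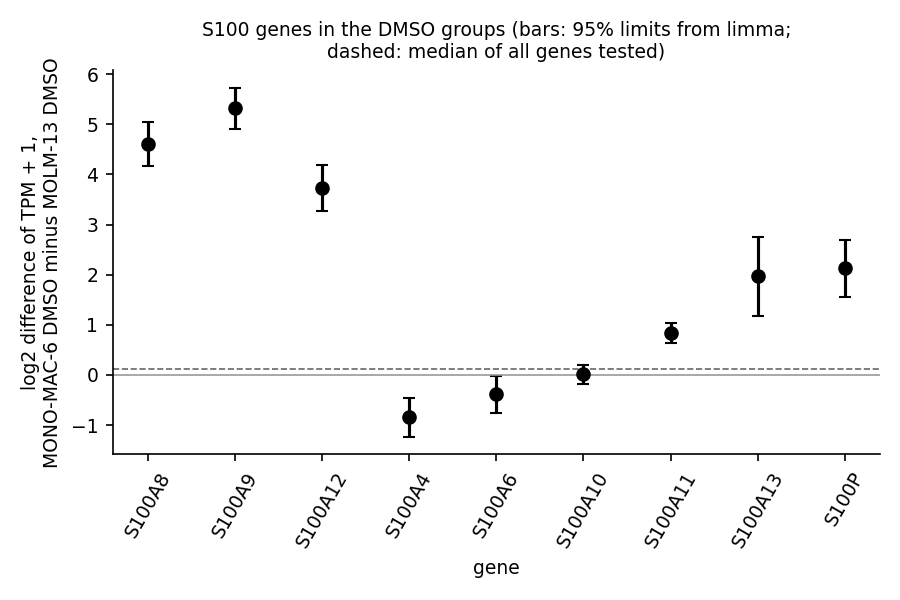
Log2 difference of TPM + 1 between the DMSO groups, MONO-MAC-6 minus MOLM-13 (vertical axis), for the 9 S100 genes; points are differences of means (n = 3 in each line), bars 95% limits from limma, and the dashed line the median of all genes tested. S100A9, S100A8 and S100A12 lie at 5.32, 4.61 and 3.74, S100A10 at 0.01 and S100A4 at -0.84.

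The order of levels accordingly differed. In the DMSO samples of MOLM-13, S100A4 was highest, followed by S100A6, S100A11, S100A8, S100A9, S100A10, S100P, S100A13 and S100A12; only the neighbours S100A9 and S100A10 overlapped in their samples. In the DMSO samples of MONO-MAC-6 the order was S100A9, S100A8, S100A4, S100A11, S100A6, S100A10, S100P, S100A12 and S100A13, and the samples of S100A9 and S100A8 overlapped, as did those of S100A12 and S100A13. Calprotectin transcripts made up 11.5% to 12.5% of the TPM of the 9 genes in MOLM-13 with DMSO, 26.3% to 27.8% with A9, and 82.95% to 87.9% in MONO-MAC-6.

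Of the 12 S100 genes outside the list, 3 reached a mean of 1 TPM in any group, and none was called with A9 by limma in either line, among 3 tested in MOLM-13 against 1 in MONO-MAC-6. In these lines 0.0862% and 0.0345% of all genes tested were called higher and lower in MOLM-13, and 2.51% and 0.854% in MONO-MAC-6. S100A2 averaged 0.448 ± 0.0299 TPM with DMSO and 1.02 ± 0.199 TPM with A9 in MOLM-13 (SD, n = 3), and its A9 mean alone brought it past the filter, so no p is given. S100A1, best known from heart muscle, averaged 1.16 TPM in MOLM-13 and 5.47 TPM in MONO-MAC-6 with DMSO, a log2 difference of 1.60 (limma adjusted p = 0.000611) that was 1.54 with DMSO sample 1 of MONO-MAC-6 left out; it shares the strand limit of S100A13. S100A3 averaged 0.520 TPM in MONO-MAC-6 and 2.04 TPM in MOLM-13 with DMSO, and only the latter brought it past the filter, so no p is given.

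Along chromosome 1, S100A9, S100A12 and S100A8 start within 33.3 kb of one another and had the largest A9 differences. S100A6 and S100A4 start 178.4 and 192.3 kb from S100A9, and S100A11 and S100A10 lie on the other side, at -1309.9 and -1363.5 kb. Of the 71 other gene symbols annotated between the outermost S100 starts, none was tested in MOLM-13 and 1 was tested in MONO-MAC-6. For RF00322, a symbol that several genes share, the value read was that of a copy on chromosome X. The tested gene, PRR9, averaged 0.929 TPM with DMSO and 1.69 TPM with A9 in MONO-MAC-6. Its log2 difference was 0.48, or 0.50 without DMSO sample 1. Its A9 mean alone brought it past the filter, so no p is given.

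**Figure D5:**
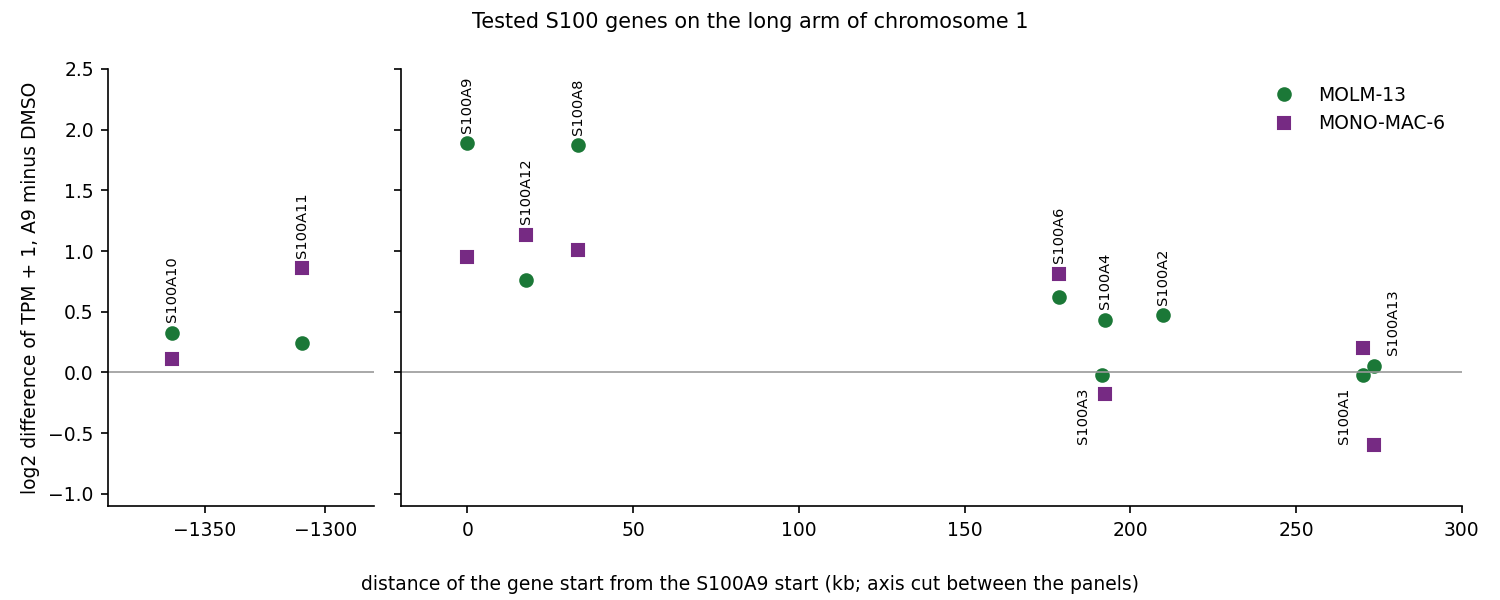
Log2 difference of TPM + 1, A9 minus DMSO (vertical axis), against the distance of the gene start from that of S100A9 in kb (horizontal axis, cut between the panels) for the tested S100 genes of chromosome 1; circles are MOLM-13 and squares MONO-MAC-6. The highest points are S100A9 and S100A8 in MOLM-13, at 1.89 and 1.87, and S100A3 and S100A1 lie near 0 in MOLM-13.

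Receptors of secreted S100 proteins were followed from a list of 10 genes. None of the 5 tested in MOLM-13 was called, where 0.0862% of all genes tested rose and 0.0345% fell. In MONO-MAC-6, where 2.51% of all genes tested rose and 0.854% fell, 1 of 10 receptors rose. That gene was CD14, the monocyte co-receptor of TLR4, at 3.14 ± 0.529 TPM with DMSO and 13.04 ± 0.552 TPM with A9 (SD, n = 3; log2 difference 1.77, limma adjusted p = 0.00256; 1.87 without DMSO sample 1). TLR4 itself averaged 2.76 and 4.81 TPM in MONO-MAC-6 and under 1 TPM in MOLM-13. Its log2 difference in MONO-MAC-6 was 0.75 (limma adjusted p = 0.302) and 0.31 without DMSO sample 1 (limma adjusted p = 0.055; up to 0.597 over 12 alternatives). AGER, which encodes RAGE, averaged 1.28 TPM with DMSO and 0.852 TPM with A9 in MONO-MAC-6. Its DMSO mean alone brought it past the filter, so no p is given. CD33, a receptor reported to bind S100A9, averaged 28.4 and 32.0 TPM there (limma adjusted p = 0.348). The log2 differences of AGER and CD33 were -0.30 and 0.17, or -0.29 and 0.12 without DMSO sample 1. Without DMSO sample 1, 3 receptors rose and 1 fell, in a fit where 14.5% of all 12931 genes tested rose and 10.3% fell. The median log2 difference of the receptors tested was -0.03 in MOLM-13 against 0.23 in MONO-MAC-6.

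None of 11 intracellular partners was called in either line. Over all genes tested, 0.0862% rose and 0.0345% fell in MOLM-13, and 2.51% rose and 0.854% fell in MONO-MAC-6. Without DMSO sample 1, 2 partners rose and 4 fell in MONO-MAC-6, beside 14.5% and 10.3% of all genes tested. The median log2 difference of the partners was -0.07 in MOLM-13 against 0.06 in MONO-MAC-6. ANXA2, the partner of S100A10, averaged 82.7 and 83.2 TPM in MOLM-13 (limma adjusted p = 0.991) and 195 and 162 TPM in MONO-MAC-6 (limma adjusted p = 0.095, and 0.00323 without DMSO sample 1 to 0.424 over 12 alternatives). ANXA1, the partner of S100A11, had a log2 difference of 0.46 in MOLM-13 against 0.40 in MONO-MAC-6 (limma adjusted p = 0.173 and 0.0822). Over 12 alternatives its limma adjusted p ran from 0.035 to 0.741 in MOLM-13 and from 0.00726, without DMSO sample 1, to 0.377 in MONO-MAC-6. CACYBP, the partner of S100A6, had differences of -0.05 and -0.20 (limma adjusted p = 0.87 and 0.221; in MONO-MAC-6, 0.00276 without DMSO sample 1 to 0.55 over 12 alternatives).

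Among 10 transcription factors known at S100 genes in myeloid cells, none of 9 tested was called in MOLM-13 and 2 of 9 rose in MONO-MAC-6. The median log2 differences were 0.11 and 0.32. Over all genes tested, 0.0862% rose and 0.0345% fell in MOLM-13, and 2.51% rose and 0.854% fell in MONO-MAC-6. KLF4, a factor of monocyte differentiation, averaged 4.21 ± 0.682 TPM with DMSO and 9.004 ± 0.539 TPM with A9 in MONO-MAC-6 (SD, n = 3; log2 difference 0.95, limma adjusted p = 0.0213, past the threshold in 7 of 12 alternatives at 0.000683 to 0.138). SPI1, which encodes PU.1, averaged 262 ± 13.4 and 340 ± 4.09 TPM (SD, n = 3; log2 difference 0.38, limma adjusted p = 0.0452, past the threshold in 4 of 12 alternatives at 0.000766 to 0.389). CEBPA, CEBPB and CEBPD, the C/EBP factors named here, had log2 differences of 0.11, 0.10 and 0.45 in MOLM-13 (limma adjusted p = 0.728, 0.889 and 0.159) and of 0.19, 0.50 and -0.11 in MONO-MAC-6 (0.218, 0.104 and 0.59). Without DMSO sample 1, 5 of the 9 rose in MONO-MAC-6, beside 14.5% of all genes tested, CEBPA and CEBPB among them (limma adjusted p = 0.00876 and 0.0111, the lowest over 12 alternatives that reached 0.977 and 0.396).

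Of 19 other EF-hand genes tested, from a list of 20, none was called in MOLM-13 and 1 fell in MONO-MAC-6. Their median log2 differences were -0.01 and 0.06. Over all genes tested, 0.0862% rose and 0.0345% fell in MOLM-13, and 2.51% rose and 0.854% fell in MONO-MAC-6. The gene that fell was NUCB2, which encodes nucleobindin, at 605 ± 33.2 with DMSO and 380 ± 14.3 TPM with A9 (SD, n = 3; log2 difference -0.67, limma adjusted p = 0.00989, and 0.000101 to 0.0909 over 12 alternatives, past the threshold in 7). Without DMSO sample 1, 1 rose and 3 fell, again beside 14.5% and 10.3% of all genes tested.

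The genes whose pattern was most like that of S100A8 and S100A9 were ranked by the root mean square difference of log2(TPM + 1), centred within each line, over 12 samples and 8053 genes. FCGRT, which encodes the neonatal Fc receptor, was nearest at 0.305, and LYZ, which encodes lysozyme, followed at 0.310. RNA5SP202, ROGDI and PRRT4 came next at 0.369, 0.4002 and 0.408. S100A6 ranked 10 at 0.455, and S100A11, S100A10, S100P and S100A4 ranked 72, 172, 211 and 234. S100A12 and S100A13 averaged under 5 TPM in MOLM-13 and were not ranked. The ranking used the same A9 and DMSO samples as the selection, so it is a description with no test.

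The labelled cell type was checked on 10 monocytic and myeloid markers, whose summed level was also higher with A9. It was 412 to 451 TPM with DMSO and 621 to 696 TPM with A9 in MOLM-13, and 3469 to 4024 and 8206 to 8545 TPM in MONO-MAC-6. LYZ made up most of the difference in both lines, averaging 134 TPM with DMSO and 327 TPM with A9 in MOLM-13, and 3413 and 7681 TPM in MONO-MAC-6. The mean was higher with A9 for 8 of the 10 markers in MOLM-13 and for 9 of 10 in MONO-MAC-6, DMSO sample 1 included. In MOLM-13, PTPRC (23.0 ± 9.69 and 12.4 ± 7.10 TPM) and ITGAM (6.73 ± 2.11 and 4.86 ± 1.375 TPM) were lower (SD, n = 3). In MONO-MAC-6, FCER1G (48.5 and 47.7 TPM) was lower, and ITGAM counted as higher at 2.985 and 3.009 TPM. The share of all genes with a higher mean was not computed, so nothing is read from these counts. CD14 stayed under 1 TPM in MOLM-13 and CSF1R under 1 TPM in MONO-MAC-6, while CD33 averaged 28.4 to 39.6 TPM over the groups. In bulk RNA, more cells of a type and more RNA per cell cannot be told apart, and the part of the monocytic genes in the S100 values was not tested. The 5 granule genes of granulocyte precursors summed to 4375 to 5052 TPM with DMSO and 4714 to 5154 TPM with A9 in MOLM-13, and to 4115 to 5250 and 4807 to 5141 TPM in MONO-MAC-6. These sums held opposite differences. In MOLM-13, PRTN3 averaged 344 ± 37.85 TPM with A9 against 24.6 ± 28.7 TPM with DMSO, where the SD exceeded the mean. ELANE averaged 1575 ± 41.7 against 932 ± 143 TPM in the same line. CTSG averaged less with A9, at 2612 ± 179 against 3461 ± 162.5 TPM in MOLM-13 and 229 ± 21.1 against 591 ± 89.2 TPM in MONO-MAC-6 (SD, n = 3). The 5 late neutrophil genes, which would mark mature neutrophils as another source of S100A8 and S100A9, summed to at most 0.0983 TPM in MOLM-13, and to 0.0401 to 0.228 TPM with DMSO and 0.805 to 1.32 TPM with A9 in MONO-MAC-6; LTF was listed at 0 in MONO-MAC-6. Markers of T and B cells, erythroid cells and epithelium summed to at most 7.43, 8.66 and 0.419 TPM in any sample.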

How the data were processed

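Poly(A) RNA of 36 libraries from MOLM-13 and MONO-MAC-6 was measured by paired-end sequencing, per the labels' protocols. The deposited tables give transcript TPM made by the authors; the submitters' processing notes name kallisto, limma and GRCh38, and versions are not given in the sources used here. TPM summed to 1000000 in each library. Of 207175 transcripts, 162561 (78.5%) matched GENCODE 29 and held 89.9% to 91.4% of TPM. Only these were summed by gene. Libraries sharing line, treatment and first number were averaged, since the design text states 3 per condition. Column names of MOLM-13 differ from the labels by 1 dropped letter.

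Genes averaging 1 TPM or more in either group were tested on log2(TPM + 1), two-sided, with limma 3.58.1 in R 4.3.3 (trend and robust), Benjamini-Hochberg adjustment and a threshold of 0.05; the log scale understates differences of low genes. The procedure was tested on simulated data. Tables and figures used Python 3.11.15, pandas 2.3.3, numpy 2.4.6 and matplotlib 3.10.9. Alternatives were a pseudocount of 0.1, no filter, median-ratio scaling, removal of a length trend, the first library only, a block for the replicate number, and fits that dropped each sample in turn.

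The members and lists were chosen with earlier results of these data known. Named genes were all members, other S100 genes averaging 1 TPM or more in any group, per list and line up to 3 called genes with the largest change, 10 genes named whatever their result (TLR4, AGER, CD33, ANXA2, ANXA1, CACYBP, CEBPA, CEBPB, CEBPD and SPI1), and the 5 genes most like S100A8 and S100A9 among those averaging 5 TPM or more in both lines. PRR9 was named outside this rule, after its value was seen. Upstream sequences came from the RefSeq promoter table of GRCh38.p14.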

Additional observations from a re-analysis of the deposited data

Results flagged for a closer look

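KLF4 and NUCB2 differed between the lines in their A9 effect, by a limma test of the interaction adjusted over all genes tested. The A9 effect on CD14 was larger in MONO-MAC-6 than in MOLM-13 by 1.73 on the log2 scale. Only its MONO-MAC-6 means brought CD14 past the filter, so no p is given. In MOLM-13 it averaged 0.296 TPM with DMSO and 0.335 TPM with A9, a level at which a pseudocount of 1 compresses differences. For KLF4 the effect was larger in MONO-MAC-6 by 0.71 (limma adjusted p = 0.0441), past the threshold in 3 of 18 alternatives (0.0252 to 0.133). For NUCB2 the effect in MONO-MAC-6 minus that in MOLM-13 was -0.70 (limma adjusted p = 0.000762). With DMSO sample 1 of MONO-MAC-6 left out the values were 1.83 for CD14, 0.62 for KLF4 and -0.66 for NUCB2. NUCB2 passed in all 18 alternatives (limma adjusted p up to 0.0396). The doses differed between the lines, and the part of the dose cannot be told apart from that of the line.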

How the results depend on the processing

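For the 9 members, 212 of 216 alternative values of the A9 differences stayed within 1 SD of the replicates. Most of this count was fixed in advance, so it is no measure of robustness. Leaving out 1 of 3 samples cannot move a difference by 1 SD, and fits with no filter or with the replicate block leave it unchanged. The other 4 were S100A12 in MOLM-13 (1.66 with a pseudocount of 0.1), S100A13 in MOLM-13 (0.26), and S100A10 and S100A11 in MONO-MAC-6 (-0.04 and 0.71 after median-ratio scaling). Differences of S100A13 and S100P in MOLM-13 changed sign, down to -0.02, in 3 and 1 of 12 alternatives. Between the DMSO groups the 6 called members passed in all 12 alternatives, and S100A6 and S100A10 also passed with a length trend removed.

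Counts over all genes depended on the setting; the causes were not tested. In MOLM-13, 14 genes passed by limma (915 at an unadjusted p under 0.05): 4 with no filter, 51 with median-ratio scaling, 177 with a length trend removed and 2 to 8 with 1 sample left out. In MONO-MAC-6, 433 passed: 272 with no filter, 1195 with a length trend removed, 275 with the first library only, 3205 without DMSO sample 1 and 59 without A9 sample 2, the extremes with 1 sample left out. Of the 433, 74.6% were higher, against 63.4% with median-ratio scaling, 53.2% with a length trend removed and 58.4% without DMSO sample 1. The interaction gave 401 genes: 740 with a length trend removed, 215 with the first library only and 197 to 549 with 1 sample left out; 64.3% were higher, against 45.5% with a length trend removed. Between the DMSO groups 6308 genes passed, 62.2% of them higher, against 50.3% with a length trend removed.

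Deviations of same-numbered samples correlated at -0.06 to 0.79 in MOLM-13 and -0.22 to 0.18 in MONO-MAC-6. In MOLM-13 the values for numbers 1 and 3 were 0.54 and 0.79. In these lines 3 and 2 of 6 samples correlated best with their own number. Whether the numbers pair the samples, in MOLM-13 above all, is not settled by these values, and the main fit was unpaired. With the replicate block 87 genes passed in MOLM-13, 94 in MONO-MAC-6 (89.4% higher), 4111 between the DMSO groups and 207 in the interaction.

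The depth is unknown, which limits S100A12 in MOLM-13 and S100A13 most.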
